A study of Mus musculus with 12 samples.

Results

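Resting B cells cross-linked through CD86, and given no other signal, were compared with resting B cells left unstimulated. These groups were chosen by their treatment labels and hold 4 of the 12 arrays of the series, 2 for anti-CD86 and 2 for unstimulated cells. All cells came from the spleens of BALB/c mice, female and 6 weeks old by the labels, and were harvested after 4 h of culture. By the methods, resting B cells were obtained by depleting splenocytes that carry CD43 and other lineage markers, and the anti-CD86 antibody carried biotin and was cross-linked with streptavidin on ice before culture. No array of cells given an isotype control antibody was analysed here, so that engagement of CD86 and the handling of antibody and streptavidin cannot be told apart. The other 8 arrays, 2 for each condition, came from cells given Pam2CSK4 (a synthetic lipopeptide that binds TLR2), anti-CD40, or either antibody with Pam2CSK4.

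CD86, also called B7-2, is a B7 family protein on antigen-presenting cells that binds CD28 and CTLA4 on T cells. On B cells it also passes a signal inward when it is bound, and work on activated B cells has placed prohibitins, phosphoinositide 3-kinase, phospholipase C gamma 2, the IkB kinases, NF-kB and the octamer factor Oct-2 (Pou2f2) on that route. Resting B cells carry little CD86 and raise it after activation. The comparison asks what the antibody alone does to the transcripts of resting cells.

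Each array was a 1-colour Agilent array, and a level below is the log2 signal of a probe minus the 75th percentile of its array, so that a level of 0 lies at that percentile. Levels are compared between arrays for 1 probe and never between probes. Between 46.6% and 60.6% of the probes were well above background on the 12 arrays. Both unstimulated arrays and 1 anti-CD86 array lay on slide 1, and the other anti-CD86 array lay on slide 2, which held no unstimulated array. The unstimulated arrays differed by a robust SD of 0.0597 over 7386 bright probes, no more than the 0.0602 that repeat spots of a probe give within an array (over 10 probes), and were therefore counted as 1 sample. The anti-CD86 arrays, on different slides, differed by a robust SD of 0.161. Nothing in the labels says that the arrays of a condition came from separate animals or cultures, so that the p-values measure the spread between these samples, which may be technical.

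With a slide term in the fit, 4593 of 29937 probes passed an adjusted p of 0.05 in limma's moderated test (15.3%), 2261 higher (7.55%) and 2332 lower (7.79%) with anti-CD86; 33.1% had an unadjusted p under 0.05. Taking the brightest tested probe of each gene, 2513 of 16142 genes were called (15.6%), 877 higher (5.43%) and 1636 lower (10.1%). The changes were small: the median absolute log2 fold change of the called genes was 0.49, and 54 genes were at least 2-fold higher and 88 at least 2-fold lower. The lowest adjusted p was 0.0141, and the median log2 fold change of all genes tested was -0.09. The levels on the 4 arrays did not overlap between the groups for 67.6% of genes, 18.1% higher and 49.5% lower with anti-CD86, so that groups lying apart is common here. On slide 1 alone, the anti-CD86 array had the sign of the fit for all 2513 called genes; that array is itself part of the fit.

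The number of calls rested on the slide term and on the anti-CD86 array of slide 1 (replicate 1). Without the slide term no probe passed limma's threshold, while 3813 had an unadjusted p under 0.05. Without anti-CD86 replicate 1 the count was 6, and without replicate 2 it was 1728. Scaling each array to its median in place of its 75th percentile moved the median of all probes from -0.05 to 0.08 and left 382 calls, 68.6% of them higher, against 49.2% higher in the main scaling. Without the slide term 4559 of the 4593 called probes had the same sign. Both fits use the same arrays, so that the shared sign is no separate support. The main genes below are given with the level on every array, and "rose" and "fell" refer to the fit with the slide term. No member of any gene list below passed without the slide term or without anti-CD86 replicate 1. With the median scaling the only member that passed was 1 in the list of gp130 cytokines and SOCS genes.

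The target of the antibody was itself not called. Cd86 was at 1.41 and 1.44 on the unstimulated arrays and at 1.51 and 1.38 on the anti-CD86 arrays, so that the groups overlapped (log2 fold change 0.13 ± 0.09 SE, adjusted p = 0.398). Of the 8 tested genes of CD86 and B7 costimulation none passed, against 15.6% of all genes. Icosl, the ligand of ICOS, was at 3.78 and 3.86 without and 3.45 and 3.31 with anti-CD86, with an adjusted p of 0.0763. None of the 14 intermediates placed on the CD86 route passed either, and their median log2 fold change was 3e-04. Pou2f2 differed by 0.16 on the log2 scale (adjusted p = 0.215), and Ikbkb, which encodes an IkB kinase, by 0.37 (adjusted p = 0.0583).

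The 12 most raised genes by the rule stated with the methods included Clcf1. It encodes cardiotrophin-like cytokine factor 1, a gp130 family cytokine that stimulates B cells. Clcf1 was at -1.35 and -1.23 on the unstimulated arrays and at 0.07 and -0.11 on the anti-CD86 arrays. The groups lay further apart than the arrays within each, and the gene rose by 1.40 ± 0.12 on the log2 scale (SE, adjusted p = 0.0142). The largest rise belonged to a probe that the array lists as LOC236598, which RefSeq names Rn28s1, the 28S ribosomal RNA. It stood at 0.02 and -0.05 without and at 1.64 and 1.94 with anti-CD86 (log2 fold change 1.64 ± 0.11 SE, adjusted p = 0.0141). For Rn18s, the 18S ribosomal RNA, the brightest probe differed by -0.04 (adjusted p = 0.836) and another probe by 1.31 on the log2 scale. Ribosomal RNA carries no poly(A) tail, and the arrays were labelled from oligo(dT).

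The rest of the 12 shared no single role. Unk, a zinc finger RNA-binding protein, rose by 1.38 ± 0.15 on the log2 scale, from -1.74 and -1.81 to -0.41 and -0.71. Cdc42bpg, a kinase that binds CDC42, rose by 1.36 ± 0.10, from -0.83 and -0.95 to 0.42 and 0.29. Fancm, a DNA translocase of the Fanconi anaemia pathway, rose by 1.29 ± 0.11, from -0.51 and -0.49 to 0.76 and 0.59. Camk1d, a calcium/calmodulin-dependent kinase, rose by 1.31, Matn4 (an extracellular matrix protein) by 1.33, D130043K22Rik by 1.36, Atcay by 1.26, LOC100044125 by 1.38 and Gm2289 by 1.24. For Camk1d the other probes had log2 fold changes of 0.09 and 0.67. Garnl4, now Rap1gap2 and an activator of the Rap1 GTPase, had a log2 fold change of 1.52 by its brightest probe and of -1.25 by its other one, and so has no settled direction.

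**Figure D1:**
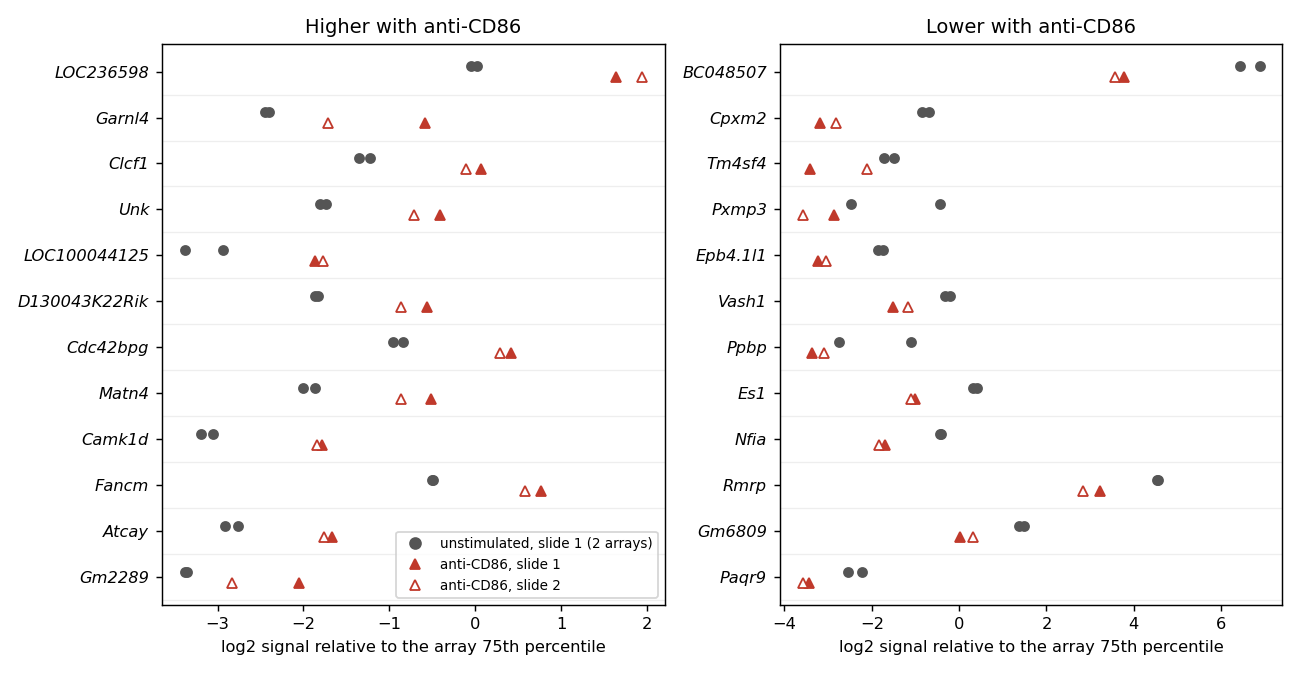
Level of the 12 most raised and 12 most lowered genes that met the rule, as log2 signal relative to the 75th percentile of each array (horizontal axis). Circles are the 2 unstimulated arrays and triangles the anti-CD86 arrays of slide 1 (filled) and slide 2 (open); no gene overlaps between the groups because the rule asks for it, and the unstimulated arrays lie far apart only for Pxmp3 and Ppbp.

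Among the lowered genes, BC048507 fell furthest, by 3.10 on the log2 scale, from 6.88 and 6.42 to 3.76 and 3.57. Its other probe had a log2 fold change of -0.33, so that the probes disagree in size. Cpxm2, a member of the carboxypeptidase family, fell by 2.32, from -0.69 and -0.84 to -3.19 and -2.82. Vash1, an angiogenesis inhibitor, fell by 1.42, and Nfia, a nuclear factor I transcription factor, by 1.31. Rmrp, the RNA of the RNase MRP complex, was at 4.56 and 4.52 without and at 3.23 and 2.84 with anti-CD86, and fell by 1.30 (SE 0.08, adjusted p = 0.0141). Rpph1, the RNA of RNase P, was at 4.16 and 4.12 and then at 3.0 and 2.78, and fell by 1.1. It lies outside the rule and was chosen after its values were seen. Rmrp and Rpph1 are not messenger RNAs, and the arrays were labelled from oligo(dT). Whether their falls reflect amounts in the cells was not tested.

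The rest of the 12 were Tm4sf4, Pxmp3 (now Pex2), Epb4.1l1, Ppbp, Es1 (now Ces1c), Gm6809 and Paqr9, with log2 fold changes between -1.87 and -1.26. Es1, a plasma carboxylesterase made in the liver, fell by both of its probes, to -1.0 and -1.11 from 0.41 and 0.32. Tm4sf4 differed between the anti-CD86 arrays themselves, at -3.42 and -2.11. The unstimulated arrays differed by 2.04 for Pxmp3 and by 1.65 for Ppbp, more than either fold change, and counting them as 1 sample hides that spread. The unstimulated arrays differed by more than the fold change for 15 of the 2513 called genes, these included.

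Some transcripts were measured in only 1 of the groups. Ifnb1, which encodes interferon beta, was at -3.25 and -3.32 on the unstimulated arrays and was not well above background on either anti-CD86 array, which makes it at least 1.69-fold lower there. Trem2, a receptor of myeloid cells, was at least 2.63-fold lower on the same terms. In the other direction Lalba, the milk protein alpha-lactalbumin, was not well above background without anti-CD86 and at least 6.07-fold higher with it, at -1.87 and -0.50. These bounds set the measured group against the lowest signal well above background on each array of the other. The transcripts were chosen after their values were seen and entered the test only through the group where they were measured; the bounds are a description, with no test.

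NF-kB subunits and targets moved in both directions. Of 15 tested subunits and inhibitors 2 rose and 1 fell, 20% called against 15.6%. Nfkb1, the p105 precursor of p50, rose from 6.65 and 6.73 to 7.05 and 6.85 (log2 fold change 0.39 ± 0.09 SE, adjusted p = 0.044). Nfkbid, a nuclear IkB protein, was at 2.45 and 2.50 and then at 2.94 and 2.59, a rise of 0.51 ± 0.09 (adjusted p = 0.0238). Rel, the c-Rel subunit of lymphocytes, fell by 0.51, from 4.03 and 4.11 to 3.52 and 3.46 (adjusted p = 0.0353), and its second probe had a log2 fold change of -0.80.

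Of 26 tested NF-kB target genes 1 rose and 6 fell (26.9% called, against 15.6% of all genes), with a median log2 fold change of -0.14 against -0.09 for all genes. Icam1, an adhesion ligand of LFA-1, was the one that rose, from 0.31 and 0.27 to 1.03 and 1.00 (log2 fold change 0.78 ± 0.10 SE, adjusted p = 0.0157). The others fell and were Il6, Ccl3, Ccl4, Cflar, Ebi3 and Ier3. Il6, a gp130 cytokine, was at -0.11 and 0.01 and then at -0.97 and -0.90 (log2 fold change -0.80 ± 0.16 SE, adjusted p = 0.0326). Of 24 immediate early genes 2 fell and none rose (8.33% called): Dusp6, a phosphatase of ERK, fell by 0.43, and Ier3 by 0.31. Egr1 was at 4.07 and 4.10 without and at 3.59 and 3.71 with anti-CD86, with an adjusted p of 0.0758.

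The promoters of the called members of both NF-kB lists are shown where they hold GGG, any 2 bases and then TTTCC on either strand, a form of the NF-kB motif. RefSeq promoters were at hand for 8 of these 10 genes. The 250 bases before the start held a match in 2, Il6 and Rel, both of which fell. Of 32851 mouse promoters 1.41% hold one. The lists were made of NF-kB subunits and targets, and members not called were not searched. The matches therefore say nothing about which genes were called. The stretches below are on GRCm38.p6, 5′ to 3′ along the gene, with the match in capitals; the Il6 stretch is chr5:30012864-30013113 on the plus strand and the Rel stretch chr11:23770970-23771219 on the minus strand. No binding was measured in these cells.
Il6: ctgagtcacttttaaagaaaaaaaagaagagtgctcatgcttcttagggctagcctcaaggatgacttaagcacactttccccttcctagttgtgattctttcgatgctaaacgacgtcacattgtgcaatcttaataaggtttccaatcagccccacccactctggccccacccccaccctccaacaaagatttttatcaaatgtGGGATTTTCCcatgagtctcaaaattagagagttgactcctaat
Rel: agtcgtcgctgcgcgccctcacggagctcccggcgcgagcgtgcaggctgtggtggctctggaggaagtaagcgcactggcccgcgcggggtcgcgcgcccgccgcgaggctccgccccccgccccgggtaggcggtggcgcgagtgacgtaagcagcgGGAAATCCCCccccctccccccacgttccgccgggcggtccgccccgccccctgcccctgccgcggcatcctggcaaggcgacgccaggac

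All 3 PIM kinases, serine/threonine kinases that promote survival, rose together. Pim1 was at 2.77 and 2.89 on the unstimulated arrays and at 3.57 and 3.34 on the anti-CD86 arrays (log2 fold change 0.79 ± 0.09 SE, adjusted p = 0.0154). Pim2 rose from 3.15 and 3.12 to 3.89 and 3.62 (0.78 ± 0.08, adjusted p = 0.015), and its other probes had log2 fold changes between 0.83 and 1.24. Pim3 rose from 3.45 and 3.41 to 4.03 and 3.84 (0.68 ± 0.12, adjusted p = 0.0252). They made up all the rises among 14 tested anti-apoptotic genes (28.6% called, against 15.6% of all genes). Of these 14 genes 1 fell: Cflar, an inhibitor of death receptor signalling, by 0.48. Neither Bcl2 (log2 fold change -0.22, adjusted p = 0.127) nor Mcl1 (0.22, adjusted p = 0.0806) was called.

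Pro-apoptotic genes were split, with 2 of 18 higher and 2 lower, 22.2% called against 15.6% of all genes. Pmaip1, the BH3 protein NOXA, fell from 3.85 and 3.97 to 3.12 and 3.0 (log2 fold change -0.75 ± 0.09 SE, adjusted p = 0.0154). Bbc3, the BH3 protein PUMA, fell by 0.39 (adjusted p = 0.0404). Lrdd, now Pidd1 and a death-domain protein induced by p53, rose from -2.46 on both unstimulated arrays to -1.59 and -1.92, by 0.86 (adjusted p = 0.0247). These directions were opposite within the list, and its median was -0.08.

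In the B cell receptor pathway 2 of 23 tested genes rose and 1 fell, 13% against 15.6% of all genes. Syk, the kinase that binds the phosphorylated receptor, rose from 4.25 and 4.34 to 5.01 and 4.86 (log2 fold change 0.77 ± 0.16 SE, adjusted p = 0.0338). Vav1, a guanine exchange factor below Syk, rose by 0.37. Cd22, a sialic acid receptor that restrains the B cell receptor, was the 1 inhibitory coreceptor of 15 that passed (6.67%). It was at 3.19 on both unstimulated arrays and at 3.62 and 3.33 with anti-CD86, a rise of 0.45 (adjusted p = 0.0239), while its other probe had a log2 fold change of 0.04. Gapt, an adaptor that binds GRB2, was of very low signal and was not called (log2 fold change -1.01 ± 0.43 SE, adjusted p = 0.166).

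Of 24 tested cytokine receptor genes 4 rose and none fell, and their 16.7% called was close to the 15.6% of all genes. Il17ra, a receptor chain for IL-17, rose from 2.07 and 2.18 to 2.89 and 2.90 (log2 fold change 0.82 ± 0.13 SE, adjusted p = 0.0203), and by its second probe by 0.79. Il2rg, the common gamma chain, rose by 0.66, from 2.00 and 1.89 to 2.57 and 2.37. Il21r, which pairs with that chain to bind IL-21, rose by 0.56, and Il10ra by 0.45. Of the gp130 cytokine and SOCS genes 20% were called, and 2 of 25 rose, Clcf1 and the kinase Tyk2 (0.69, from -0.28 and -0.21 to 0.42 and 0.25). The 3 that fell in that list were Il6, Ebi3 and Lifr, and for Lifr the other probes ranged from -0.21 to 0.56.

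The Toll-like receptor pathway held 6 higher and 2 lower genes of 21 tested, 38.1% called against 15.6% of all genes. Without anti-CD86 replicate 2 it held 1 higher and 1 lower, and with the median scaling none passed. The adaptors Tirap and Myd88 rose by 0.71 and 0.46, the kinases Irak1 and Irak3 by 0.38 and 0.42, the transcription factor Irf5 by 0.62 and the receptor Tlr1 by 0.38. Irf5 was at 3.33 and 3.39 without and at 3.97 and 3.69 with anti-CD86 (adjusted p = 0.0174), and Myd88 at 2.97 and 2.99 and then at 3.44 and 3.24 (adjusted p = 0.0322). Tlr2 and Tlr4 fell. Tlr2, the receptor of Pam2CSK4, went from 2.52 and 2.60 to 2.10 and 1.83 (log2 fold change -0.46 ± 0.08 SE, adjusted p = 0.0245), and Tlr4, the endotoxin receptor, from -1.38 and -1.34 to -2.03 and -1.64 (-0.62, adjusted p = 0.0168).

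**Figure D2:**
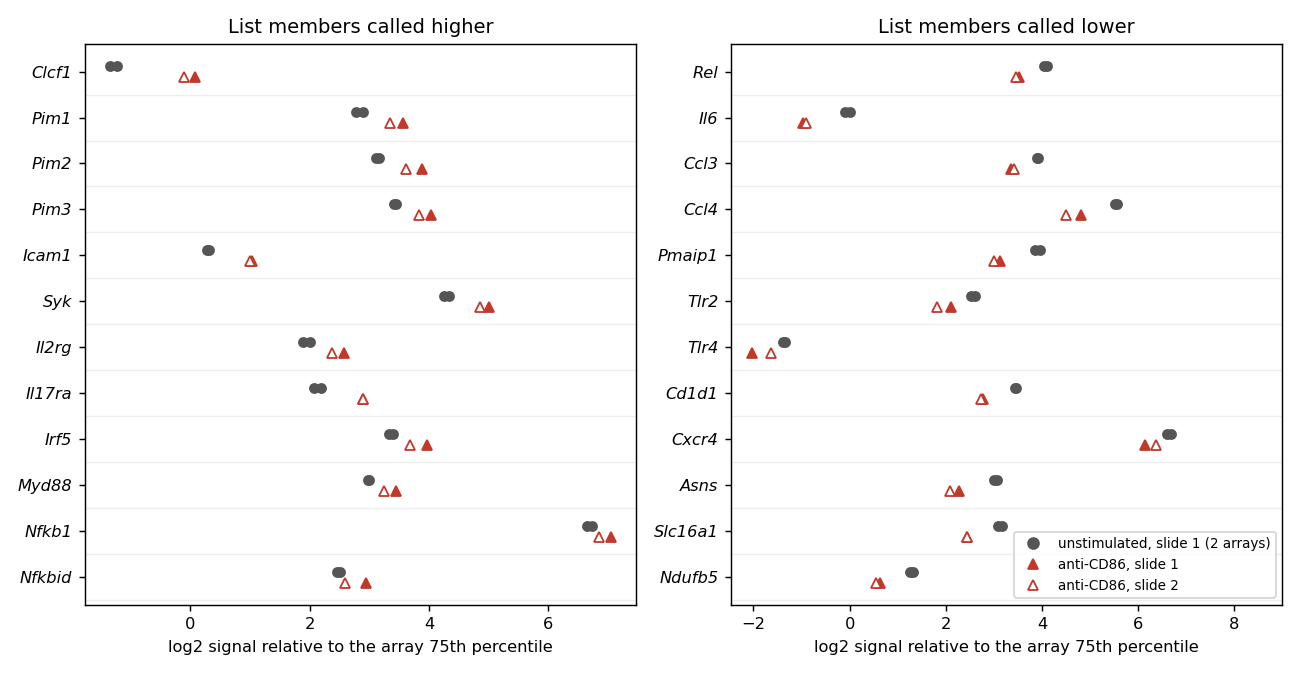
Level of 24 called list members, as log2 signal relative to the 75th percentile of each array (horizontal axis), with 12 that rose at left and 12 that fell at right. Circles are the 2 unstimulated arrays and triangles the anti-CD86 arrays of slide 1 (filled) and slide 2 (open); the open triangle lies closer to the circles for Nfkbid and Tlr4 and further from them for Ccl4 and Tlr2.

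Cytokine and chemokine genes mostly fell where they passed, 6 of 21 against 1 that rose, 33.3% called. Of all genes tested 15.6% were called, 10.1% lower and 5.43% higher, so that falls were also the more common direction there. Ccl4, the chemokine MIP-1 beta, fell from 5.52 and 5.55 to 4.81 and 4.50 (log2 fold change -0.71 ± 0.08 SE, adjusted p = 0.0154). Ccl3, MIP-1 alpha, fell from 3.90 and 3.92 to 3.36 and 3.41 (-0.53, adjusted p = 0.0206), and Ccl5, RANTES, by 0.44. Xcl1, a chemokine of T and NK cells, fell by 0.60 and Il12b by 0.44, while Il12a rose by 0.32. Of 9 NK cell markers 3 fell (Nkg7, Gzma and Gzmb), and of 13 myeloid markers 4 (Mpo, Ela2, Emr1 and S100a8), as described below. The other members of these lists were not called, and 3 NK and 2 myeloid markers had log2 fold changes above 0.

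Surface and trafficking genes gave 3 rises and 4 falls of 25, 28% called against 15.6%. Itga4, the alpha 4 integrin chain, had a log2 fold change of 0.72 by its brightest probe, but between -0.20 and 0.25 by the others. Itgb7, a partner of alpha 4, fell by 0.50 and Cxcr4, the receptor that holds lymphocytes near CXCL12, by 0.45, from 6.59 and 6.68 to 6.13 and 6.37. Among 20 follicular and marginal zone genes 4 fell and none rose, 20% against the 10.1% of all genes that fell. Cd1d1, which presents lipids and is high on marginal zone B cells, fell from 3.45 and 3.43 to 2.77 and 2.73 (log2 fold change -0.59 ± 0.10 SE, adjusted p = 0.0219), and Cd9, a tetraspanin of marginal zone cells, fell by 0.50. In the regulators of B and plasma cells, 18.2% of which were called, Bcl6 fell by 0.38 and Id2 by 0.49, while Spib rose by 0.47 and Bcl11a by 0.33 by its brightest probe, with -0.31 by the other.

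Among the pathway lists, marker lists left aside, oxidative phosphorylation had the highest share of calls. Of 42 tested subunits 17 fell and 1 rose, and 42.9% were called against 15.6% of all genes, with a median log2 fold change of -0.31 against -0.09. Ndufb5, Ndufb2 and Ndufa9, subunits of complex I, fell by 0.61, 0.59 and 0.58; Ndufb5 was at 1.32 and 1.27 and then at 0.64 and 0.55 (adjusted p = 0.023). With the median scaling none of the 42 passed, and their median was -0.19 against 0.04 for all genes. Without anti-CD86 replicate 1 or without the slide term none passed either, as in every other list. Cytosolic ribosomal proteins held 1 called gene of 57 (Rpl14).

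Glycolysis and transporter genes held 7 falls and 1 rise of 24, 33.3% called. Slc16a1, the monocarboxylate transporter MCT1, fell from 3.08 and 3.17 to 2.44 on both anti-CD86 arrays (log2 fold change -0.67 ± 0.08 SE, adjusted p = 0.0154). Slc7a1, a transporter of arginine and lysine, fell by 1.09 and Slc2a1, the glucose transporter GLUT1, by 0.40. Pfkp, a phosphofructokinase, rose by 0.64 by its brightest probe but had a log2 fold change of -2.12 by its other one, and has no settled direction. In the unfolded protein response list 4 of 22 fell and 1 rose (22.7% called). Asns, asparagine synthetase, fell by 0.74, from 3.0 and 3.07 to 2.27 and 2.10 (adjusted p = 0.0147), while Myd116 (Ppp1r15a), which restores translation after stress, rose by 0.65. Of 25 cholesterol genes 5 fell and 1 rose (24% called). Of 30 Myc-type growth genes 3 rose, Rrp12 (1.09), Gart (0.69) and Nolc1 (0.57), and 1 fell, 13.3% called and so below the 15.6% of all genes.

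**Figure D3:**
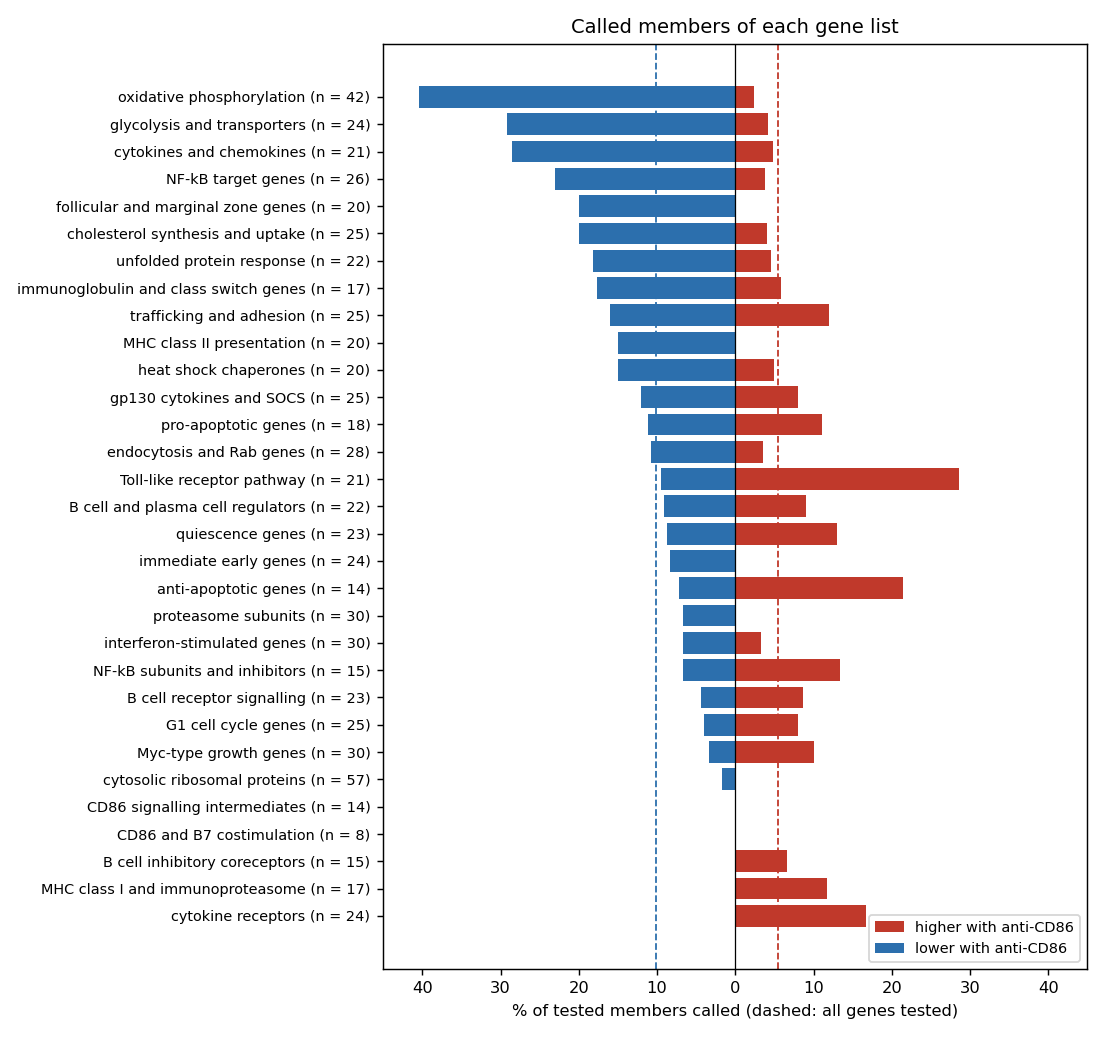
Share of the tested members of each gene list that were called higher (right) or lower (left) with anti-CD86, in %, with the number tested in brackets; dashed lines mark 5.43% and 10.1%, the shares of all genes tested. Oxidative phosphorylation reaches furthest to the left and the Toll-like receptor pathway furthest to the right.

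Between 6.67% and 23.5% of the members of the remaining lists were called, against 15.6% of all genes. Of 25 genes of the G1 phase 2 rose (Mcm3 and Ccnd3) and 1 fell, and of 23 quiescence genes 3 rose and 2 fell, Klf4 by 0.52 among them. Interferon-stimulated genes gave 1 rise and 2 falls of 30, and proteasome subunits 2 falls of 30. Of MHC class II genes 3 of 20 fell, and of MHC class I genes 2 of 17 rose, Tap2 (a peptide transporter) by 0.76 from 1.46 and 1.38 to 2.21 and 2.15. Heat shock chaperones gave 1 rise and 3 falls of 20, endocytosis and Rab genes 1 rise and 3 falls of 28, and immunoglobulin and class switch genes 1 rise and 3 falls of 17.

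Transcripts of other cells were present in these B cell preparations. The summed levels of myeloid, NK and T cell markers were lower with anti-CD86, and also with each of the other single signals. These sums carry no slide term, and wherever a condition lay on both slides its slide 2 array was the lower. On slide 1 alone the T cell sum was 5.32 with anti-CD86, 5.42 with Pam2CSK4 and 5.37 with anti-CD40. It was 5.47 and 5.50 on the unstimulated arrays. All 12 B cell markers were well above background on the 4 arrays. Their summed level was between 9.29 and 9.43 without and between 9.11 and 9.27 with anti-CD86. That sum holds probes near the scanner's ceiling: Cd79b and Cd74 were both at 7.39 on anti-CD86 replicate 2, as was S100a9 in the myeloid list. Near the ceiling a level follows the scaling of its array, so that the B cell difference cannot be read as a fall. The 13 myeloid markers summed to between 9.0 and 9.09 without and to between 8.58 and 8.72 with anti-CD86, with Mpo, the myeloperoxidase of granulocytes, among the called genes (7.25 and 7.28, then 6.62 and 6.31). The 9 NK cell markers went from between 4.57 and 4.59 to between 4.05 and 4.22, and the 12 T cell markers from between 5.47 and 5.50 to between 5.09 and 5.32. With Pam2CSK4 the NK sum was 4.37 and 4.21 and the myeloid sum 8.86 and 8.69. With anti-CD40 the NK sum was 4.16 and 3.90 and the myeloid sum 8.76 and 8.53. Of the tested markers 4 of 13 myeloid, 3 of 9 NK, 1 of 5 red cell, 0 of 5 plasma cell, 0 of 2 pancreas and 0 of 11 T cell genes fell and none rose. Of all genes tested 10.1% fell and 5.43% rose. The median log2 fold change of the T cell markers was -0.12, against -0.09 for all genes. Of the B cell markers 1 of 12 rose and none fell, and 1 of 2 muscle genes rose. In bulk samples fewer cells of a type and less RNA per cell cannot be told apart, and the part of these cells in the falls of Ccl3, Ccl4, Xcl1, Tlr4 or Trem2 was not tested.

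Of the marker lists plotted, liver transcripts shifted most, from between 4.17 and 4.18 to between 3.0 and 3.32 in summed level, again with no slide term. Serpina1d, an antitrypsin of the liver, fell from 3.17 and 3.15 to 2.17 and 1.81 (log2 fold change -0.97 ± 0.16 SE, adjusted p = 0.021), and Fgb, a fibrinogen chain, by 0.79; Serpina1 genes are near-identical, and their probes may share signal. Alb, albumin, was at 2.20 and 2.16 and then at 1.55 and 1.25 (adjusted p = 0.333). Genes of the major urinary proteins, which the liver secretes, were chosen after their values were seen. Of 6 tested, 5 fell and none rose, against 10.1% of all genes that fell, with log2 fold changes between -1.06 and -0.92. Mup1 went from 3.82 and 3.87 to 2.88 and 2.75. These genes are near-identical, and their probes may share signal. Kidney markers were near background, with 3 of 4 not well above it on any of the 4 arrays. The fall was not particular to anti-CD86. The summed liver level was 3.67 and 3.38 with Pam2CSK4 and 3.70 and 3.25 with anti-CD40. It was -0.24 and -0.39 with anti-CD40 and Pam2CSK4 together. The source of the liver transcripts was not tested.

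**Figure D4:**
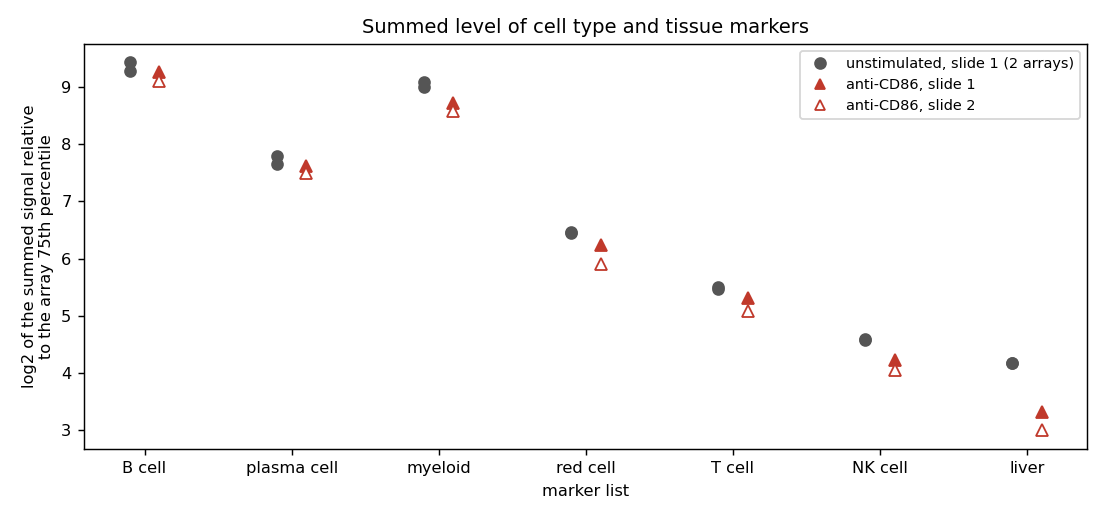
Summed signal of each marker list on the 4 arrays, as log2 relative to each array's 75th percentile (vertical axis), for markers of B, plasma, myeloid, red, T and NK cells and of liver (horizontal axis). Circles are the 2 unstimulated arrays and triangles the anti-CD86 arrays of slide 1 (filled) and slide 2 (open). The liver list shows the widest gap, from between 4.17 and 4.18 to between 3.0 and 3.32. The B cell, plasma cell and myeloid sums hold probes near the scanner's ceiling, and no sum carries a slide term.

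Anti-CD86 was also set directly against each of the other single signals on the same probes. Against Pam2CSK4, 4842 probes were called (16.2%), 2770 higher (9.25%) and 2072 lower (6.92%) with anti-CD86; without the slide term 65 were. By genes this was 14.3%, 7.21% higher and 7.09% lower. Against anti-CD40, 9693 were called (32.4%), 5359 higher (17.9%) and 4334 lower (14.5%), and 2008 without the slide term. By genes this was 33.1%, 19.5% higher and 13.6% lower. The median scaling turned this last split from 55.3% to 91.4% higher and moved the median of all probes from -0.02 to 0.41, so that directions against anti-CD40 hold relative to the scaling used; 8224 of the 9693 kept their sign.

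Clcf1 was higher with anti-CD86 than with either other signal, by 0.63 on the log2 scale against Pam2CSK4 (adjusted p = 0.0147) and by 0.86 against anti-CD40 (adjusted p = 0.00198). Several genes of the NF-kB and PIM groups were lower than with either. Icam1 had a log2 difference of -1.98 from anti-CD40 (adjusted p = 0.000233) and had a log2 difference of -0.76 from Pam2CSK4 (adjusted p = 0.00744). For Pim1 these differences were -1.64 and -0.62 (adjusted p = 0.000314 and 0.01), for Nfkbid -1.32 and -0.60 (0.000438 and 0.01), and for Rel -1.09 and -0.54 (0.000884 and 0.018). Pim2 and Pim3 were below their level with anti-CD40, with log2 differences of -0.72 and -0.50, but were not called against Pam2CSK4, where the differences were -0.02 and -0.10.

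Other genes separated anti-CD86 from 1 of the signals. Il6 was far below its level with Pam2CSK4 (log2 difference -1.64, adjusted p = 0.0046), as were Ccl3 (-1.01, adjusted p = 0.00316) and Tlr2 (-0.83, adjusted p = 0.00456). Il10ra was above its level with anti-CD40 by 1.51 (adjusted p = 0.000272). Syk differed by 0.20 from Pam2CSK4 and by 0.24 from anti-CD40, neither called (adjusted p = 0.318 and 0.193). Each signal's own change was taken from the same unstimulated arrays: the log2 fold changes of Ndufb5 were -0.61 with anti-CD86, -0.56 with Pam2CSK4 and -0.51 with anti-CD40, and those of Mup1 -0.92, -0.56 and -0.60.

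**Figure D5:**
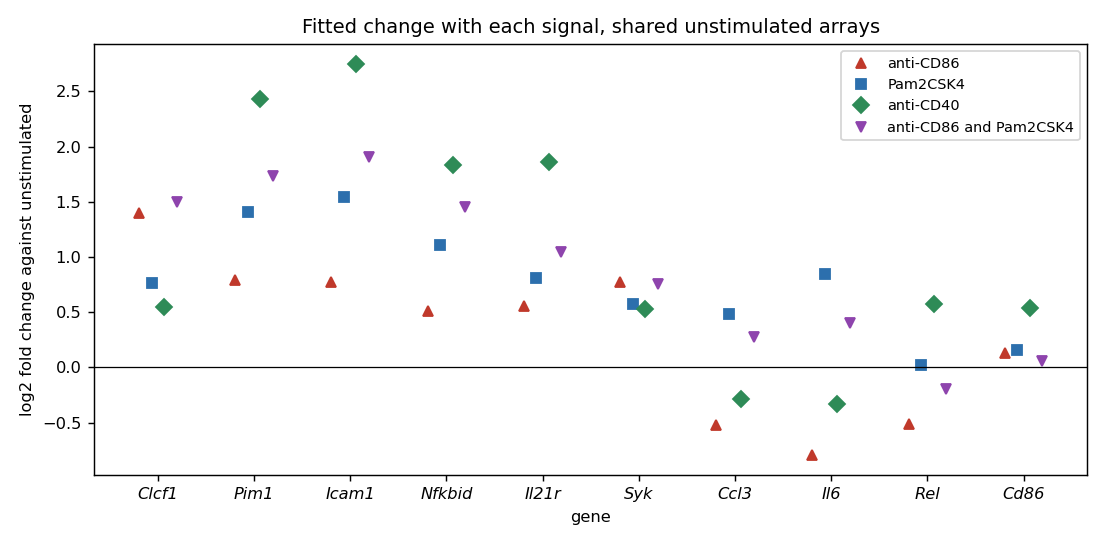
Fitted log2 fold change against unstimulated cells (vertical axis) of 10 genes with anti-CD86, Pam2CSK4, anti-CD40, and anti-CD86 with Pam2CSK4. All 4 are set against the same unstimulated arrays; Icam1 and Pim1 lie lowest with anti-CD86 alone, while Clcf1 is at 1.40 with anti-CD86 and at 0.54 with anti-CD40.

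Of 7633 tested probes for noncoding RNAs, 744 were higher (9.75%) and 372 lower (4.87%), against 7.55% and 7.79% of all probes tested. Probes that were above background in only 1 of the groups are among those tested, and the split was not tested. A probe named u184470_mRNAlike was not well above background without anti-CD86 and at least 11.4-fold higher with it, at -1.03 and 0.49; it was chosen after its values were seen and is given as a description, with no test.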

How the data were processed

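Total RNA of 12 samples was labelled with Cy3 from oligo(dT) and hybridised to a custom Agilent mouse array. The authors deposited the scanner's output, and the intensity used here is its processed signal, background-subtracted by Feature Extraction. They also deposited a table of log2 values, each array's log2 processed signal minus a constant near its 75th percentile, which served as an alternative. Here each log2 intensity, less its array's 75th percentile, was averaged over spots of a probe. Probes had to be well above background on both arrays of either group, with no outlier spot. Slides were read from the array barcode.

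limma 3.58.1 in R 4.3.3 was fitted with condition and slide as terms over all arrays, the unstimulated ones averaged to 1 sample (11 samples, 4 residual degrees of freedom), with Benjamini-Hochberg adjustment over 29937 probes and a threshold of 0.05. The fit was run on simulated data with independent noise, taken from the conditions whose arrays share a slide, and an exactly additive slide shift. The simulation does not test whether these settings hold for the arrays. The study's methods name a one way test without a model. A gene was read by its brightest tested probe; 13613 of 16142 symbols matched RefSeq. The number of arrays limits precision. Promoters are RefSeq's, GRCm38.p6.

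The text names Clcf1, Cd86, the 12 highest and 12 lowest called genes that were unsaturated and well above background on all 4 arrays with groups apart, also on slide 1, and from each list up to 4 members with the largest absolute change; further list members were chosen after their values were seen. The members and lists were chosen with earlier results of these data known. Alternatives were another normalization, background correction, filter, handling of slides or test, and each array left out. Some called list members are not reported here.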

Additional observations from a re-analysis of the deposited data

How the results depend on the processing

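For anti-CD86 against unstimulated cells (4593 in the main fit) the count was 3796 with slide as a random block, 4692 with quantile normalization, 5724 with normexp, 4581 with the authors' table, 5139 with probes well above background on all 4 arrays and 3984 with those so in any condition. It was 0 without the slide term and 0 on slide 1 alone (7440 at an unadjusted p under 0.05), 14 on the 4 arrays alone, 2 with no filter on dim probes, 382 with median scaling, and 0 by the methods' one way test (6556 unadjusted). Leaving out 1 array gave 6 to 5026, the lowest without anti-CD86 replicate 1. Chosen after seeing the data, entering the unstimulated arrays as 2 samples gave 9261, or 904 without the slide term, and averaging the anti-CD40 and Pam2CSK4 arrays too gave 2563. Against Pam2CSK4 (4842) the count was 65 without the slide term, 871 with median scaling and 133 to 1201 with 1 array left out; against anti-CD40 (9693) it was 2008, 5694 and 5570 to 7723. A replicate block in place of the slide term gave 4593 (35.5% higher), 999 and 5499, and a replicate block together with it 6946 against unstimulated cells. Deviations of same-numbered arrays correlated at 0.65 to 0.81 where both replicate 2 arrays lay on slide 2 and at -0.14 to 0.14 otherwise. In the conditions with replicate 2 on slide 2, anti-CD86 included, pairing by replicate number and the slide cannot be told apart. The cause of these moves was not tested.

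Of 95 called genes tabulated for these alternatives, 17 stayed called with median scaling, 87 with quantile normalization, 53 without anti-CD86 replicate 2 and 0 without anti-CD86 replicate 1 or without the slide term.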
